A study of Homo sapiens with 18 samples.

Results

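The interaction of VIC-1911 and olaparib was measured in C4-2B cells, a human prostate cancer cell line, after 7 days of treatment. VIC-1911 inhibits AURKA, a kinase of the mitotic spindle, and olaparib inhibits PARP1 and PARP2, enzymes that act at DNA breaks. Poly(A) RNA was sequenced in 3 libraries per group, from cells that received DMSO vehicle, 0.1 μM VIC-1911, 1 μM olaparib, or 0.1 μM VIC-1911 together with 1 μM olaparib. These 12 libraries, of 18 in the series, form a 2 by 2 design. All groups were wild type cells of the same line in the same medium, and nothing in the labels says that the libraries of a group came from separate cultures, so the p-values measure the spread between these samples. The luminal prostate genes KLK3, TMPRSS2 and HOXB13 were present in all 12 libraries, whereas PTPRC, PECAM1, COL1A2 and TP63, defining genes of immune, endothelial, fibroblast and basal cells, were listed at 0 FPKM in 10 or 11 of the 12. Other genes of those marker lists were present in every library, among them CD68 (6.11 to 10.1 FPKM), COL1A1 (1.24 to 2.27), KRT14 (0.799 to 2.89), VWF (0.173 to 0.754), COL3A1 (0.0206 to 0.201) and PDGFRB (0.119 to 0.318), and their part in the results was not tested.

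The interaction asks whether VIC-1911 changed a gene by the same factor with and without olaparib. For each gene it is the log2 fold change of the combination against olaparib, less the log2 fold change of VIC-1911 against vehicle, and a value of 0 means that the effects of the drugs add up on the log2 scale. A gene is above the additive expectation where the value is positive and below it where the value is negative. The series also gives 6 libraries of 48 hours, which hold no olaparib and were used here only to show the earlier effect of VIC-1911.

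Dividing cells switch on their genes in waves. The E2F factors drive replication genes before S phase. MYB-containing complexes, FOXM1 and the DREAM complex control the mitotic genes through promoter elements that include the CHR. The promoters of mitotic genes often hold a CCAAT box as well. When p53 is active it raises CDKN1A, the inhibitor of cyclin-dependent kinases, and DREAM then shuts these waves down. ATF4 is the effector of the integrated stress response and raises genes of amino acid synthesis and transport.

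Of 21276 genes in the table, 14409 had at least 10 counts in at least 3 of the 12 libraries and were tested. The filter passed 143 genes for which the third highest count was 10 and left out 193 for which the third highest count was 9. The interaction was called at an adjusted p under 0.05 (edgeR's quasi-likelihood test, Benjamini-Hochberg adjustment over all genes tested) for 6333 genes, 44.0% of those tested, with 3029 above (21%) and 3304 below (22.9%). At least 2-fold interactions were called for 624 genes above (4.33%) and 600 below (4.16%). Just inside the threshold lay USP33, with an interaction of -0.18, and just outside it MYL6B, with 0.28.

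The total counts of the 12 libraries lay between 4967931 and 19684208, and the biological coefficient of variation was 4.43%. The vehicle libraries stood apart from the 9 treated libraries on the first principal component, which held 50.9% of the variance. Olaparib replicate 1, which had the lowest total, stood apart from all others on the third component, which held 7.34%. Without it, 2921 genes were above and 3213 below the additive expectation, 54 of 54 mitotic genes were below and 40 of 43 ATF4 targets above. VIC-1911 and vehicle libraries carry neighbouring library numbers, as do olaparib and combination libraries, and nothing says what the numbers mark. A shift on the log2 scale shared by all libraries of a run of numbers cancels in the interaction and in the VIC-1911 effect within each run, but cannot be told apart from olaparib in a comparison of olaparib or the combination with vehicle.

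Most of the VIC-1911 effect seen without olaparib was not seen with it. VIC-1911 changed 7550 genes against vehicle (52.4% of those tested), whereas the combination differed from olaparib in 1657 genes (11.5%), 655 of them higher and 1002 lower. Against vehicle, olaparib changed 7785 genes (54.0%) and the combination 8153 (56.6%). Of the 993 genes that VIC-1911 changed by at least 2-fold without olaparib, 376 had a change of the same sign with it and 14 had one of at least 2-fold past the test. Their median change was 1.35 log2 units without olaparib and -0.11 in the same direction with it. These VIC-1911 effects share no library, and across all genes tested their Pearson correlation was -0.092, a description over genes that are not independent replicates.

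**Figure D1:**
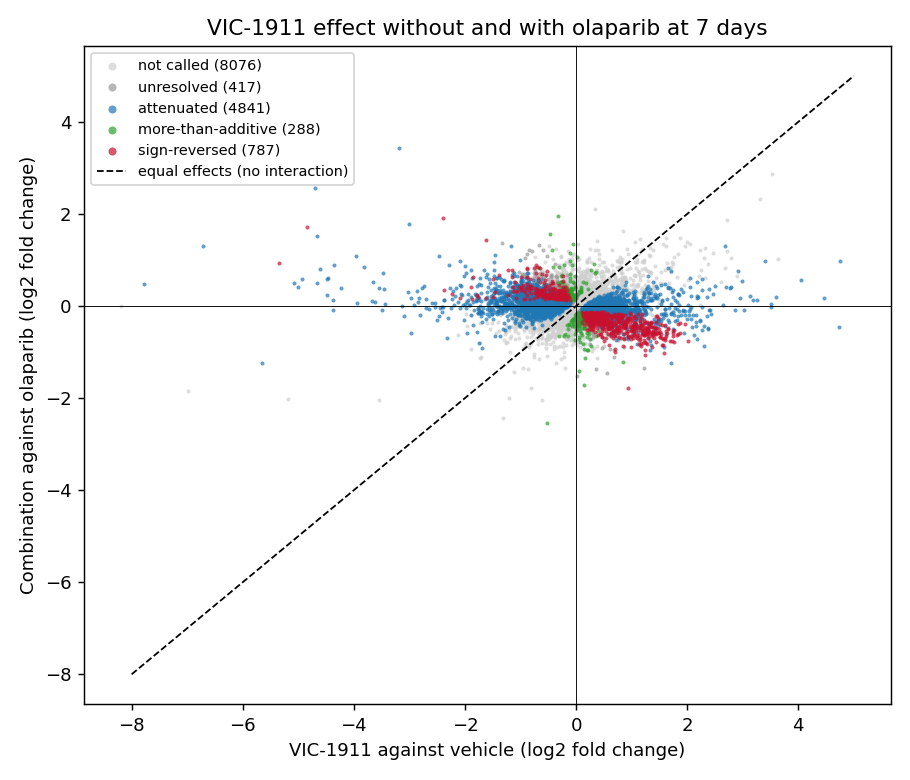
Each point is a gene of the 14409 tested, with the log2 fold change of VIC-1911 against vehicle on the x axis and that of the combination against olaparib on the y axis. The points lie along the horizontal line at 0 and not along the dashed line of equal effects, and the 787 sign-reversed genes (red) lie at the upper left and lower right.

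The called genes were sorted by the tests of the VIC-1911 effect without and with olaparib. Attenuated genes moved under VIC-1911 alone and showed a smaller effect, or none past the test, when olaparib was present. More-than-additive genes moved with olaparib present in the direction of the interaction, without an opposite call for VIC-1911 alone. Sign-reversed genes passed both tests in opposite directions. Attenuated genes made up 4841 genes (33.6% of those tested and 76.4% of those called), more-than-additive genes 288 (2.0% of those tested) and sign-reversed genes 787 (5.46%), while 417 passed neither test of VIC-1911 (2.89%). With olaparib present, 118 of the 4841 attenuated genes passed the test in the direction of VIC-1911 alone, and 4723 did not pass it. Of those 4723, 3261 had the sign opposite to VIC-1911 alone. VIC-1911 against vehicle and the interaction share 6 libraries with opposite sign, so the error of those libraries favours attenuation among the genes called for both.

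The class of a gene also depends on which drug is followed. With the roles swapped, so that the olaparib effect without and with VIC-1911 was sorted, 3242 genes were attenuated, 1481 more-than-additive and 1427 sign-reversed, although the interaction is the same number. The smaller classes also moved with single libraries. More-than-additive genes numbered 162 without olaparib replicate 3, 173 without combination replicate 1 and 173 without combination replicate 3. Sign-reversed genes numbered 483 without olaparib replicate 2 and 502 without combination replicate 3. In all 12 fits that left out a library, 3279 genes stayed attenuated, 69 more-than-additive and 319 sign-reversed.

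**Figure D2:**
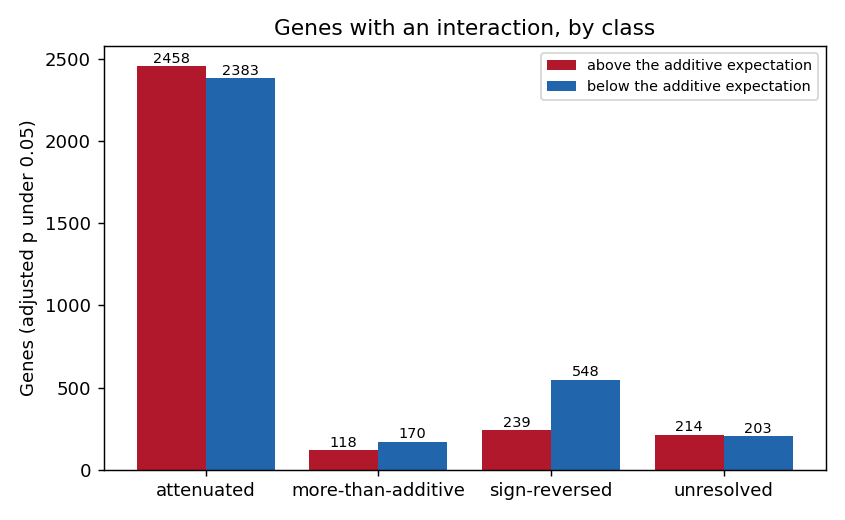
The bars give the number of genes with an interaction at an adjusted p under 0.05 in each class, red for above and blue for below the additive expectation. Attenuated genes were split nearly evenly, 2458 and 2383, whereas sign-reversed genes were more often below, 548 against 239.

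Among the attenuated genes, 3953 (81.7%) were also moved by olaparib alone in the direction of VIC-1911 and are called saturating here. Their median change was 0.49 log2 units for VIC-1911, 0.47 for olaparib and 0.44 for the combination against vehicle, where the sum of the single drugs gave 0.97. The combination was smaller in size than either drug alone for 1912 of them, between the drugs for 991 and larger than either for 1050. A further 864 attenuated genes were not called for olaparib, and 24 moved against VIC-1911. Over all genes tested, olaparib alone moved 54.0% in either direction. Both drugs are compared with the same vehicle libraries, so the error of those libraries favours a shared direction.

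The targets of ATF4 were lowered to about the same level by each drug and by both. Of 43 tested, 40 were above the additive expectation and 0 below, against 21% and 22.9% of all genes. Of the 43 targets, 34 were attenuated and 6 sign-reversed, against 33.6% and 5.46% of all genes. Their median was -1.63 log2 units under VIC-1911, -1.70 under olaparib and -1.60 under the combination, where addition gave -3.25. The median interaction was 1.69 for the list and 0.01 for all genes tested. The summed level of the list was 6405 to 6692 FPKM (a level scaled to gene length and library size) in the vehicle libraries and 2083 to 2480 FPKM in the 9 treated libraries. At 48 hours VIC-1911 had lowered 34 of the 42 targets tested then and raised 0, against 7.19% and 7.50% of all genes tested then.

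PCK2 makes phosphoenolpyruvate in the mitochondrion. It had 233, 248 and 255 FPKM in the vehicle libraries, 15.4, 17.9 and 16.1 under VIC-1911, 10.7, 12.4 and 11.7 with olaparib, and 12.4, 12.9 and 11.6 in the combination libraries. The treated libraries all lay far below vehicle, and the interaction was 4.01 (SE 0.09, adjusted p = 1.7e-24). ASNS, asparagine synthetase, had 167, 191 and 191 FPKM in the vehicle libraries, 25.8, 26.5 and 27.0 under VIC-1911, 21.7, 22.4 and 20.3 with olaparib, and 23.7, 24.5 and 23 in the combination libraries. Its treated groups lay close together without overlap, olaparib lowest, all far below vehicle, and the interaction was 3.0 (SE 0.08, adjusted p = 3.1e-22). STC2, a secreted glycoprotein, had 73.8, 75.8 and 80.8 FPKM in the vehicle libraries, 12.7, 13.3 and 13.2 under VIC-1911, 13.6, 12.5 and 12.9 with olaparib, and 13.7, 13.4 and 13.2 in the combination libraries. Its treated groups overlapped with each other and not with vehicle, and the interaction was 2.67 (SE 0.07, adjusted p = 3.1e-22). SLC7A11, the cystine transporter, which stands on the ATF4 and the NRF2 list, had 66.5, 74.7 and 76.3 FPKM in the vehicle libraries, 7.29, 7.19 and 6.40 under VIC-1911, 4.24, 4.55 and 4.42 with olaparib, and 4.09, 5.04 and 4.45 in the combination libraries, with an interaction of 3.47 (SE 0.10, adjusted p = 5.6e-22).

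ATF4 itself had 389.5, 399 and 392 FPKM in the vehicle libraries, 143, 143 and 148 under VIC-1911, 141, 149 and 147 with olaparib, and 173, 165 and 162 in the combination libraries. It fell by 1.49 log2 units under VIC-1911 alone and rose by 0.20 when VIC-1911 was added to olaparib, with an interaction of 1.69 (SE 0.06, adjusted p = 6.4e-20). DDIT3, the stress factor CHOP, had 44.8, 49.6 and 56.0 FPKM in the vehicle libraries, 8.52, 9.35 and 11.2 under VIC-1911, 10.6, 10.4 and 9.84 with olaparib, and 13, 12.3 and 13.3 in the combination libraries. All treated libraries were below vehicle, the combination was above olaparib by 0.35 log2 units, and the interaction was 2.73 (SE 0.13, adjusted p = 4.5e-16). SESN2, a stress-induced regulator of mTORC1 that is also a p53 target, had 32.6, 34.1 and 31.5 FPKM in the vehicle libraries, 8.67, 9.23 and 9.64 under VIC-1911, 14.0, 14.0 and 13.9 with olaparib, and 15.5, 15.4 and 15.4 in the combination libraries. Its VIC-1911 libraries were the lowest, and the interaction was 2.04 (SE 0.08, adjusted p = 7.2e-19). DDIT3 lies over MARS1 in the annotation, and strand was not given in the sources used here, so its counts are uncertain.

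Genes of the unfolded protein response were also lowered by each drug at 7 days, with smaller changes. Of 26 tested, 22 were above and 1 below the additive expectation, against 21% and 22.9% of all genes, and 23 were attenuated, against 33.6%. The median was -0.42 under VIC-1911, -0.64 under olaparib and -0.74 under the combination. The median interaction was 0.34 and the highest 1.59. Unlike most ATF4 targets, 22 of the 26 were lower in the combination than under VIC-1911, against 3196 of all 14409 genes. At 48 hours VIC-1911 had lowered 2 and raised 1 of them, against 7.19% and 7.50% of all genes tested then. XBP1, a transcription factor of the response, had 328, 331 and 346 FPKM in the vehicle libraries, 127, 143 and 119 under VIC-1911, 80.1, 88.4 and 86.0 with olaparib, and 79.2, 78.8 and 77.1 in the combination libraries. Vehicle was highest, VIC-1911 was intermediate, and the interaction was 1.31 (SE 0.07, adjusted p = 8.9e-15). HERPUD1, a membrane protein of ER-associated degradation, and DNAJB9, an ER co-chaperone, had interactions of 1.59 and 1.51, both called. VEGFA, the vascular growth factor and a member of the glycolysis and hypoxia list, had 94.2, 99.0 and 119 FPKM in the vehicle libraries, 23.1, 23.4 and 21.8 under VIC-1911, 22.1, 23.6 and 22.3 with olaparib, and 27.3, 26.6 and 26.7 in the combination libraries. It was lower in all treated groups and was sign-reversed, with an interaction of 2.49 (SE 0.09, adjusted p = 2.1e-19).

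**Figure D3:**
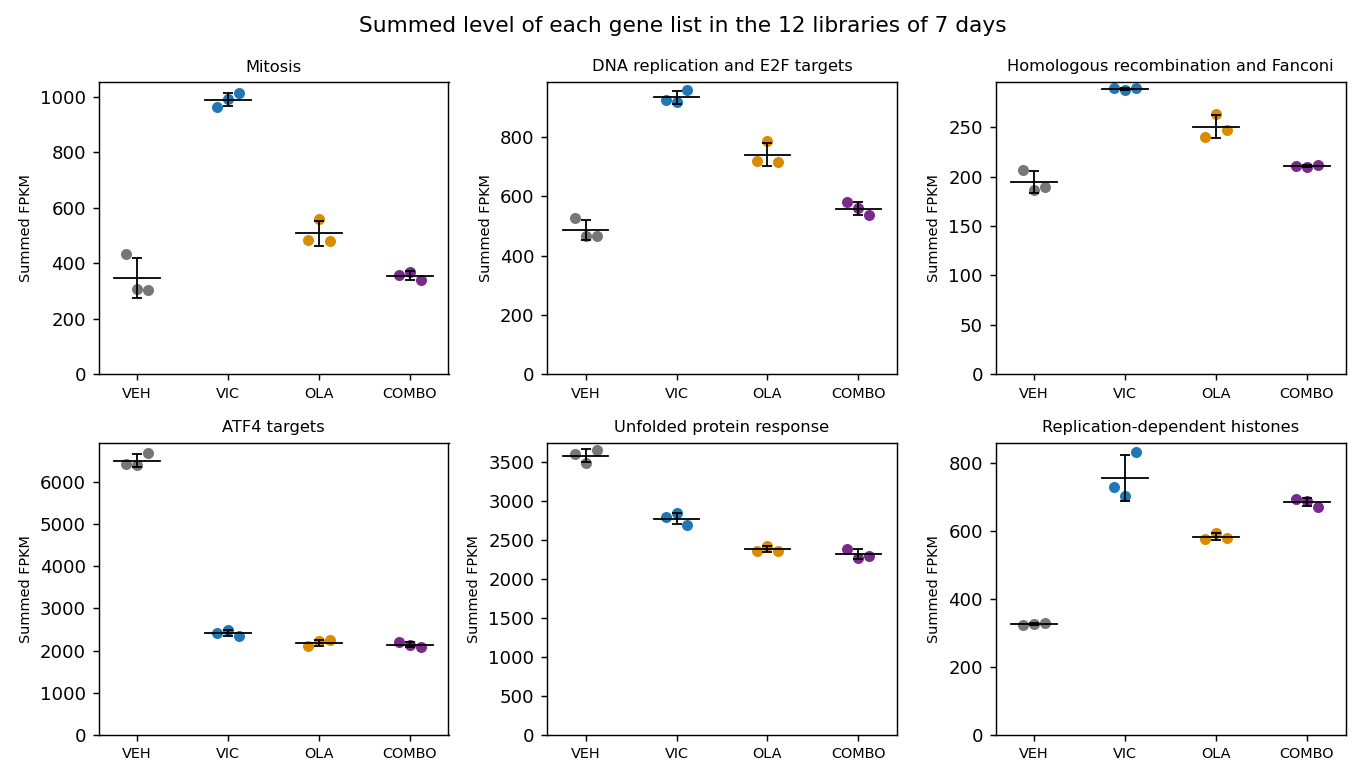
Each point is the summed FPKM of a gene list in a library, with the mean and SD of 3 libraries per group (VEH, vehicle; VIC, VIC-1911; OLA, olaparib; COMBO, both drugs). The ATF4 list is high only in vehicle (6405 to 6692). The mitosis list is highest under VIC-1911 (965 to 1015) and next under olaparib (482 to 560), with vehicle (304 to 432) and the combination (339 to 369) lower and at similar levels.

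Mitotic genes were higher under VIC-1911 alone than in vehicle, and lower in the combination than under olaparib. All 54 mitotic genes tested were below the additive expectation, against 22.9% of all genes, and 49 of them were sign-reversed, against 5.46%. VIC-1911 raised 53 and lowered 0 without olaparib, against 26.7% and 25.7% of all genes. With olaparib it raised 0 and lowered 50, against 4.55% and 6.95%. The medians against vehicle were 1.30 under VIC-1911, 0.46 under olaparib and -0.10 under the combination, where addition gave 1.77. At 48 hours VIC-1911 had raised 2 and lowered 22 of them, against 7.50% and 7.19% of all genes tested then.

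DNA replication and E2F targets were also higher under VIC-1911 alone than in vehicle, and lower in the combination than under olaparib. Unlike the mitotic genes, their median in the combination lay above vehicle, at 0.22 log2 units. Of 50 tested, 49 were below the additive expectation, against 22.9% of all genes, and 45 were sign-reversed, against 5.46%. VIC-1911 raised 49 of them without olaparib, against 26.7%, and lowered 45 with it, against 6.95%, and the median interaction was -1.28. Of 41 genes of homologous recombination and the Fanconi pathway, 30 were below and 0 above, against 22.9% and 21%, 21 were sign-reversed, against 5.46%, and the median interaction was -0.94. The combination left 24 of these repair genes lower than olaparib alone and 0 higher, against 6.95% and 4.55%. Against vehicle the combination raised 15 of the 41 and lowered 4, with a median of 0.09 log2 units. Among all 14409 genes it raised 4122 and lowered 4031 against vehicle. Replication-dependent histone genes did not reverse: 13 of 24 were below, against 22.9%, and all 13 were attenuated, against 33.6%. HIST1H1C, HIST1H2BJ and HIST1H2BK had interactions of -1.97, -2.64 and -1.16, all called. Histone transcripts mostly lack a poly(A) tail, and copies of the family are nearly identical, so their counts in a poly(A) library are uncertain.

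The vehicle level enters every interaction value. By its summed level the replication list was lowest in vehicle (466 to 526 FPKM, against 537 to 579 in the combination), while the mitosis list overlapped between vehicle and the combination. Vehicle replicate 1 had the highest mitosis sum of its group (432 against 304 and 307 FPKM). The part that the growth state of the vehicle cultures after 7 days played in these interactions was not tested. Without vehicle replicate 1, 54 of 54 mitotic genes were below and 51 were sign-reversed. The reversal counts moved with single libraries. Over the fits that left out a library, 36 to 51 mitotic, 33 to 45 replication and 15 to 22 repair genes were sign-reversed. Each of these counts was lowest without olaparib replicate 2. The counts below the additive expectation moved less, at 53 to 54, 49 to 50 and 27 to 31.

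CDK1, the kinase that drives entry into mitosis, had 12.7, 9.20 and 11.4 FPKM in the vehicle libraries, 38.9, 38.9 and 42.5 under VIC-1911, 38.8, 43.9 and 38.1 with olaparib, and 25.8, 26.5 and 24.9 in the combination libraries. VIC-1911 and olaparib alone reached about the same level, the combination lay between them and vehicle, and the interaction was -2.46 (SE 0.10, adjusted p = 5.8e-18). The 2 single-drug groups overlapped, and neither overlapped with the combination. AURKA, the target of VIC-1911, had 8.01, 5.45 and 5.61 FPKM in the vehicle libraries, 23.5, 23 and 25.9 under VIC-1911, 9.11, 10.1 and 8.23 with olaparib, and 7.33, 6.98 and 6.57 in the combination libraries. It was far highest under VIC-1911 alone, and the interaction was -2.23 (SE 0.14, adjusted p = 8.2e-14). ANLN, a scaffold of the cleavage furrow, had 7.88, 6.73 and 6.32 FPKM in the vehicle libraries, 19.7, 20.9 and 21.3 under VIC-1911, 10.8, 10.4 and 9.56 with olaparib, and 5.99, 7.08 and 6.03 in the combination libraries. The combination was at the vehicle level, and the interaction was -2.17 (SE 0.10, adjusted p = 9.7e-17).

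TOP2A, which untangles replicated DNA, had 9.91, 8.22 and 8.04 FPKM in the vehicle libraries, 22, 22.3 and 22.5 under VIC-1911, 15.4, 15.2 and 13.9 with olaparib, and 9.96, 10.6 and 9.99 in the combination libraries, with an interaction of -1.82 (SE 0.09, adjusted p = 1.4e-16). AURKB, the kinase of the chromosomal passenger complex, had 10.9, 8.03 and 8.20 FPKM in the vehicle libraries, 21.3, 19.9 and 23.3 under VIC-1911, 11.9, 15.1 and 11.7 with olaparib, and 10.3, 9.46 and 8.20 in the combination libraries, with an interaction of -1.66 (SE 0.16, adjusted p = 6.9e-10). Both genes were highest under VIC-1911 alone. ERCC6L, a DNA translocase of anaphase bridges, had 1.12, 0.796 and 0.727 FPKM in the vehicle libraries, 3.95, 3.88 and 3.55 under VIC-1911, 2.32, 2.47 and 2.23 with olaparib, and 1.48, 1.52 and 1.12 in the combination libraries, with an interaction of -2.77 (SE 0.19, adjusted p = 4.7e-13). HMGB2 and LMNB1, chromatin and nuclear envelope proteins whose loss accompanies senescence, had interactions of -1.33 and -1.83, both called.

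RRM2, a subunit of ribonucleotide reductase, had 12.1, 11.1 and 11.1 FPKM in the vehicle libraries, 31.8, 29.7 and 30.7 under VIC-1911, 22.3, 25.6 and 22.7 with olaparib, and 13.5, 12.4 and 12 in the combination libraries. The combination overlapped with vehicle and lay below both single drugs, and the interaction was -2.26 (SE 0.08, adjusted p = 5e-19). MCM10, which helps to start replication forks, had 1.99, 1.53 and 1.64 FPKM in the vehicle libraries, 5.96, 5.76 and 6.41 under VIC-1911, 4.16, 4.85 and 4.02 with olaparib, and 2.58, 2.48 and 2.45 in the combination libraries, with an interaction of -2.55 (SE 0.14, adjusted p = 2.5e-15). MCM4, a subunit of the replicative helicase, and ATAD2, a chromatin ATPase, had interactions of -1.74 and -1.65, both called.

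Among the repair genes, BRCA1, which acts in homologous recombination, had 3.35, 3.15 and 3.13 FPKM in the vehicle libraries, 5.05, 5.61 and 5.23 under VIC-1911, 3.55, 4.65 and 3.61 with olaparib, and 2.72, 2.77 and 2.64 in the combination libraries. The combination was the lowest group, and the interaction was -1.22 (SE 0.12, adjusted p = 6.1e-10). BRCA2, which acts in the same pathway, POLQ, the polymerase of end joining by microhomology, and FANCI, of the crosslink repair complex, had interactions of -1.74, -1.69 and -1.46, all called. PARP1, a target of olaparib, had 59.9, 55.9 and 55.1 FPKM in the vehicle libraries, 84.4, 84.7 and 90.1 under VIC-1911, 80.3, 80.9 and 79.6 with olaparib, and 70.1, 70.8 and 68.1 in the combination libraries, with an interaction of -0.74 (SE 0.06, adjusted p = 2.2e-11). PARP2 was attenuated, with an interaction of -0.55.

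The promoters of 3 of these mitotic genes are shown for the elements through which such genes are known to be controlled. Each line holds 110 bases upstream of the RefSeq start in GRCh38.p14, 5′ to 3′ on the strand of the gene, and capitals mark the CHR (TTTGAA) and the CCAAT box (CCAAT), searched on both strands, so that TTCAAA and ATTGG are the same elements on the other strand. The stretch of CDK1 lies at chr10:60778150-60778259 on the plus strand, the stretch of TOP2A lies at chr17:40418001-40418110 on the minus strand and the stretch of ANLN lies at chr7:36389752-36389861 on the plus strand.
CDK1: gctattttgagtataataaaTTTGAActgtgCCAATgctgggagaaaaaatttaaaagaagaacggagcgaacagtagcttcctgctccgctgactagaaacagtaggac
TOP2A: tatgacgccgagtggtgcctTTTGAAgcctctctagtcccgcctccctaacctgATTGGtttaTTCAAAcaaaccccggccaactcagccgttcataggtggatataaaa
ANLN: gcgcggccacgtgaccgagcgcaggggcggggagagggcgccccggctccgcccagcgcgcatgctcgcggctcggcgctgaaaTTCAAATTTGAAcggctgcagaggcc
In windows from 250 bases before to 50 after the start, the CHR was found in 34 of 47 mitotic promoters of the table (72.3%) and in 15.4% of all 27305. The CCAAT box was found in 34 of the 47 (72.3%) and in 35.7% of all. Among 43 replication and E2F promoters, 1 held the CHR (2.33%) and 23 the CCAAT box (53.5%). The window of ANLN held the CHR and no CCAAT box, and that of AURKB held a CCAAT box and no CHR. A match is a description of the letters and shows no binding.

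Targets of p53 were mostly attenuated, and their counts stand beside 33.6% attenuated, 22.9% below and 21% above among all genes tested. Of 19 genes of arrest and repair, 11 were below and 3 above the additive expectation, of 17 of cell death 8 and 4, and of 18 of feedback and other roles 10 and 2, with 11, 10 and 10 attenuated. The arrest list had medians of 0.51 under VIC-1911, 1.12 under olaparib and 1.22 under the combination, where addition gave 1.5. CDKN1A had 28.5, 24.3 and 25.1 FPKM in the vehicle libraries, 93.0, 95.5 and 99.8 under VIC-1911, 209.7, 219 and 219 with olaparib, and 260.1, 258 and 257 in the combination libraries. Its groups did not overlap and rose in the order vehicle, VIC-1911, olaparib, combination, and the interaction was -1.57 (SE 0.07, adjusted p = 1.6e-17). VIC-1911 raised CDKN1A by 1.84 log2 units without olaparib and by 0.27 with it.

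BTG2, an antiproliferative target, had 7.79, 6.52 and 6.31 FPKM in the vehicle libraries, 17.9, 20.2 and 20.6 under VIC-1911, 32.7, 33.0 and 35.4 with olaparib, and 42.7, 44.4 and 44.1 in the combination libraries, with the same order of groups and an interaction of -1.07 (SE 0.09, adjusted p = 1e-10). BAX, which permeabilises mitochondria in apoptosis, had 14.6, 12.7 and 14.9 FPKM in the vehicle libraries, 32.0, 32.8 and 35.7 under VIC-1911, 37.7, 43.7 and 44.0 with olaparib, and 54.7, 46.5 and 49.5 in the combination libraries, with an interaction of -0.97 (SE 0.10, adjusted p = 6.7e-09). MDM2, the ubiquitin ligase of p53, had 13.8, 12.6 and 13.2 FPKM in the vehicle libraries, 21.9, 21.5 and 22.2 under VIC-1911, 35.0, 33.0 and 33.5 with olaparib, and 35.0, 37.4 and 35.8 in the combination libraries. Its olaparib and combination groups lay above the others, and the interaction was -0.58 (SE 0.06, adjusted p = 1.6e-08). AEN, SPATA18 and PTP4A1 were attenuated too, with interactions of -0.89, -1.01 and -0.52. PHLDA1, unlike most of the death list, was sign-reversed, with 3.67, 2.40 and 2.45 FPKM in the vehicle libraries, 6.10, 5.25 and 4.78 under VIC-1911, 3.77, 3.97 and 3.60 with olaparib, and 2.28, 2.03 and 1.79 in the combination libraries. It was highest under VIC-1911 and lowest in the combination, and the interaction was -1.71 (SE 0.17, adjusted p = 1e-09).

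**Figure D4:**
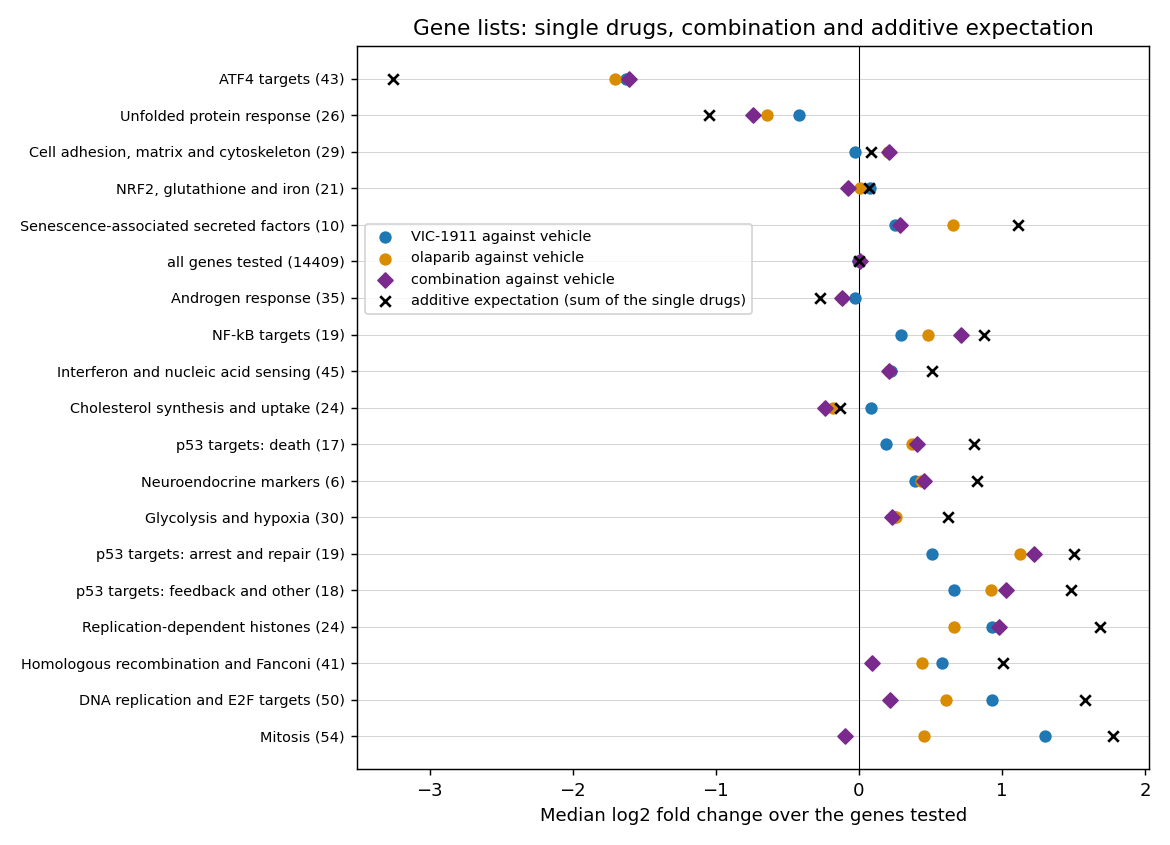
The x axis is the median log2 fold change over the genes tested of each list (their number in brackets) for VIC-1911, olaparib and the combination against vehicle, with the sum of the single drugs as a cross. For ATF4 targets the 3 medians lie together (-1.63, -1.70 and -1.60) with the cross at -3.25, and for mitosis the combination (-0.10) lies below both drugs.

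More-than-additive genes were few, and most lay beyond both single drugs. Of the 288, 108 were higher in the combination than under either drug, against 4.11% of all genes, and 151 lower than under either, against 6.39%, which is partly fixed by how the class was chosen. The median size of their interaction was 0.36 log2 units, against 0.49 for attenuated and 0.90 for sign-reversed genes. IGFBP3, which binds insulin-like growth factors, had 2.11, 2.08 and 2.97 FPKM in the vehicle libraries, 2.07, 1.58 and 1.96 under VIC-1911, 9.11, 8.17 and 5.65 with olaparib, and 26.3, 27.2 and 30.5 in the combination libraries. VIC-1911 and vehicle did not differ past the test, olaparib was higher and the combination the highest without overlap, and the interaction was 2.29 (SE 0.21, adjusted p = 5.5e-10). ADRA2A, an adrenergic receptor, had 2.84, 3.14 and 2.99 FPKM in the vehicle libraries, 2.12, 3.41 and 2.41 under VIC-1911, 8.87, 10.7 and 8.32 with olaparib, and 14.7, 20.1 and 16.9 in the combination libraries. Vehicle and VIC-1911 overlapped, the combination was the highest group, and the interaction was 1.1 (SE 0.18, adjusted p = 1.1e-05).

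LPXN, a focal adhesion adaptor, had 1.63, 2.14 and 1.75 FPKM in the vehicle libraries, 1.70, 1.34 and 1.64 under VIC-1911, 2.07, 2.99 and 2.98 with olaparib, and 4.76, 5.15 and 5.23 in the combination libraries. The combination was the highest group, and the interaction was 1.16 (SE 0.21, adjusted p = 4.9e-05). UBAC2-AS1, a long non-coding RNA, had an interaction of 1.5 (SE 0.39, adjusted p = 0.0023). Below the expectation, ZP1, a zona pellucida glycoprotein, had 1.80, 1.25 and 0.977 FPKM in the vehicle libraries, 1.64, 2.11 and 1.09 under VIC-1911, 0.387, 0.573 and 0.473 with olaparib, and 0.176, 0.168 and 0.102 in the combination libraries, with an interaction of -1.86 (SE 0.50, adjusted p = 0.003). ELOVL6, a fatty acid elongase, had 2.71, 1.64 and 1.84 FPKM in the vehicle libraries, 2.40, 2.70 and 2.63 under VIC-1911, 1.58, 1.68 and 1.53 with olaparib, and 0.780, 0.935 and 0.904 in the combination libraries. Vehicle and VIC-1911 overlapped, the combination libraries were the lowest, and the interaction was -1.13 (SE 0.23, adjusted p = 0.00015). ISX, an intestinal homeobox factor, and GP1BA, a platelet glycoprotein, had interactions of -1.18 and -1.15, and both were lower in the combination than in any other group.

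**Figure D5:**
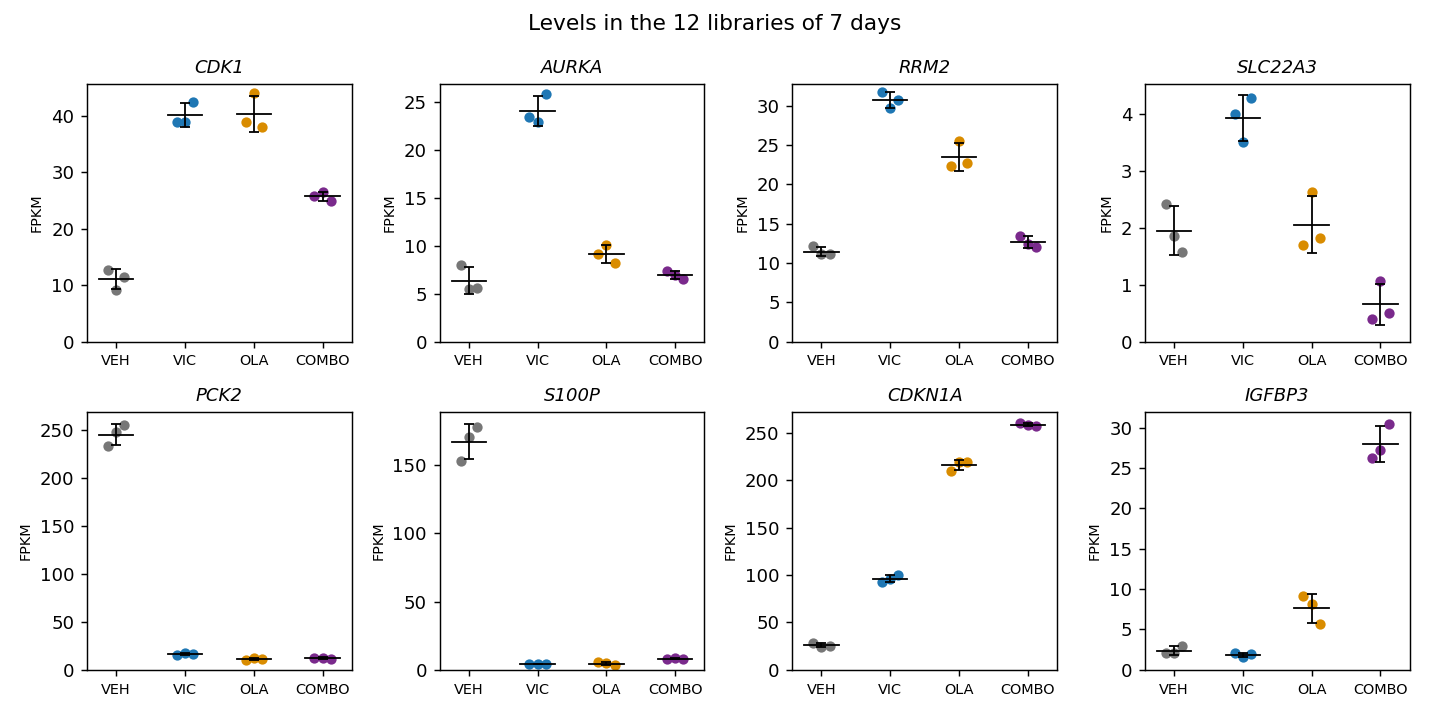
Points are the FPKM of each library, with the mean and SD of 3 libraries per group (VEH, vehicle; VIC, VIC-1911; OLA, olaparib; COMBO, both drugs). PCK2 and S100P are high only in vehicle, AURKA only under VIC-1911 and IGFBP3 mainly in the combination (26.3 to 30.5), while CDKN1A rises from vehicle to the combination.

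The sign-reversed genes furthest above the additive expectation were low in all treated groups. S100P, a calcium-binding protein, had 153, 171 and 178 FPKM in the vehicle libraries, 4.34, 4.03 and 4.32 under VIC-1911, 5.69, 4.87 and 3.36 with olaparib, and 7.66, 8.68 and 8.18 in the combination libraries. The treated libraries did not overlap with vehicle, the combination lay above both drugs, and the interaction was 6.28 (SE 0.21, adjusted p = 6.4e-20). BEST1, a chloride channel, had 12.1, 11.2 and 11.4 FPKM in the vehicle libraries, 0.468, 0.534 and 0.282 under VIC-1911, 0.271, 0.147 and 0.161 with olaparib, and 0.488, 0.763 and 0.461 in the combination libraries, with an interaction of 6.55 (SE 0.33, adjusted p = 8.5e-16), and it overlaps FTH1, the ferritin heavy chain, whose interaction was 0.98. MAP1B, which stabilises microtubules, had 8.52, 10.7 and 10.3 FPKM in the vehicle libraries, 2.79, 2.75 and 2.82 under VIC-1911, 3.07, 2.88 and 3.10 with olaparib, and 4.13, 4.82 and 5.04 in the combination libraries, with an interaction of 2.50 (SE 0.11, adjusted p = 4.4e-17). Furthest below were ERCC6L, described with the mitotic genes, then SLC22A3, MCM10 and TMSB15A. SLC22A3, a transporter of organic cations, had 2.42, 1.85 and 1.57 FPKM in the vehicle libraries, 4.0, 3.49 and 4.28 under VIC-1911, 1.70, 2.62 and 1.82 with olaparib, and 0.402, 1.06 and 0.496 in the combination libraries. VIC-1911 was the highest and the combination the lowest group, and the interaction was -2.70 (SE 0.28, adjusted p = 5.8e-09). TMSB15A, an actin-binding thymosin, had 2.51, 1.72 and 0.511 FPKM in the vehicle libraries, 6.17, 6.07 and 6.24 under VIC-1911, 5.73, 5.43 and 4.91 with olaparib, and 2.74, 2.28 and 4.0 in the combination libraries, with an interaction of -2.50 (SE 0.34, adjusted p = 5.3e-07).

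The attenuated genes with the highest interactions had almost no reads outside vehicle. KLHDC7B had 1.71, 2.15 and 2.08 FPKM in the vehicle libraries, 0, 0.0208 and 0 under VIC-1911, 0.102, 0.0302 and 0.0260 with olaparib, and 0.0580, 0.0663 and 0.0336 in the combination libraries, with at most 4 counts in any treated library. Its fitted interaction was 8.25, and 5.78 with a larger prior count of 2, so its size is not fixed by these counts. PRSS1, a trypsinogen with near-identical paralogs, had 15.4, 17.6 and 23.1 FPKM in the vehicle libraries, 0.145, 0.305 and 0.0920 under VIC-1911, 0, 0.138 and 0.0476 with olaparib, and 0.266, 0.121 and 0.185 in the combination libraries, and its reads could belong to a paralog. LAMP3, a lysosomal membrane protein, had 3.10, 4.14 and 5.56 FPKM in the vehicle libraries, 0.237, 0.0559 and 0.105 under VIC-1911, 0.0914, 0.176 and 0.140 with olaparib, and 0.117, 0.277 and 0.256 in the combination libraries, with an interaction of 5.58 (SE 0.62, adjusted p = 1.4e-08). DMGDH, an enzyme of choline breakdown, had 1.15, 1.45 and 1.54 FPKM in the vehicle libraries, 0.0944, 0.0594 and 0.0239 under VIC-1911, 0.0365, 0.0324 and 0.0372 with olaparib, and 0.0933, 0.126 and 0.0960 in the combination libraries, and its interaction was 6.18, and 5.21 with the larger prior count.

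On the other side, DHRS2, a short-chain dehydrogenase, had at most 3 counts in a vehicle library and had 0.0310, 0.0522 and 0.202 FPKM in the vehicle libraries, 1.17, 1.03 and 1.54 under VIC-1911, 0.543, 0.696 and 0.530 with olaparib, and 0.669, 1.1 and 0.924 in the combination libraries. Its interaction was -3.49, and -2.72 with the larger prior count. ODAM, a secreted protein of tooth and epithelia, had 0.528, 0.0684 and 0.176 FPKM in the vehicle libraries, 1.29, 1.30 and 1.44 under VIC-1911, 1.30, 1.23 and 1.33 with olaparib, and 1.01, 0.821 and 0.937 in the combination libraries, with an interaction of -2.75 (SE 0.49, adjusted p = 3.3e-05). ADAM7, a member of the ADAM family, had 0.416, 0.104 and 0.200 FPKM in the vehicle libraries, 1.51, 1.15 and 1.25 under VIC-1911, 3.10, 2.73 and 2.04 with olaparib, and 1.56, 2.14 and 1.63 in the combination libraries, with an interaction of -2.88 (SE 0.34, adjusted p = 6e-08). LOC101929705, for which no position was found, had 0.228, 0.154 and 0.247 FPKM in the vehicle libraries, 1.24, 1.46 and 1.75 under VIC-1911, 0.266, 0.708 and 0.39 with olaparib, and 0.473, 0.662 and 0.306 in the combination libraries, with an interaction of -2.94 (SE 0.47, adjusted p = 7.7e-06). In all 4 genes vehicle was the lowest group.

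The ATF4 element TGATGNAAT, searched on both strands, was found in 2 of the 18 promoters held for the 24 genes with the largest interactions of their class, S100P and KLHDC7B, and in 279 of all 27305 (1.02%). Both are shown as above, with the element in capitals on the other strand (ATTTCATCA). The stretch of S100P lies at chr4:6693734-6693843 on the plus strand and the stretch of KLHDC7B lies at chr22:50545727-50545836 on the plus strand.
S100P: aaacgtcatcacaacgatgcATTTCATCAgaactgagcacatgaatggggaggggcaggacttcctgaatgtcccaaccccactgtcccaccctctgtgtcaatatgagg
KLHDC7B: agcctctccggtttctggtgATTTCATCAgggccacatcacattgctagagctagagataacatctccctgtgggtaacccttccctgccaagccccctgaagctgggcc
Among 33 promoters of the ATF4 list, 2 held the element (6.06%), and those of PCK2, STC2, DDIT3 and SESN2 did not hold these letters in this window.

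The other lists showed interactions in both directions, and their counts stand against 21% above and 22.9% below among all genes tested. Of 35 androgen response genes 12 were above and 12 below, somewhat over those shares. KLK3, which encodes prostate-specific antigen, had 2668, 2697 and 2678 FPKM in the vehicle libraries, 1863, 1815 and 1746 under VIC-1911, 1628, 1663 and 1682 with olaparib, and 1728, 1599 and 1684 in the combination libraries. Its treated libraries all lay below vehicle, and the interaction was 0.64 (SE 0.05, adjusted p = 9.9e-11). FKBP5, an androgen and glucocorticoid target, was sign-reversed, with an interaction of -1.15, while STEAP2 and KLK4, a metalloreductase and a kallikrein protease, were attenuated, with 1.15 and 0.88.

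Of 45 genes of the interferon response and nucleic acid sensing 11 were above and 11 below, close to the 21% and 22.9% of all genes, which is no result about the list. OAS3, a sensor of double-stranded RNA, was sign-reversed, with an interaction of -1.85, whereas ISG20, an exonuclease, and TRIM14 were attenuated, with 1.46 and -0.61. With olaparib present VIC-1911 raised 12 of the 45 and lowered 1, against 4.55% and 6.95% of all genes. Of 19 NF-kB targets 2 were above and 5 below, together a smaller share than the 44.0% called among all genes, with LIF at -1.03, NFKB2 at -0.42 and NFKB1 at -0.45, all attenuated.

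Against the same 21% above and 22.9% below among all genes, 5 of 30 genes of glycolysis and hypoxia were above and 15 below, with LDHA, lactate dehydrogenase, at -1.26 and GPI, glucose-6-phosphate isomerase, at -0.72. Of 24 cholesterol genes 3 were above and 10 below, with the regulator SREBF2 at 0.60 and the synthetic enzymes SC5D and EBP at 0.71 and -0.88. In the NRF2, glutathione and iron list 7 of 21 were above and 6 below, with TFRC, the transferrin receptor, at -1.07. Of 29 genes of adhesion, matrix and cytoskeleton 12 were above and 5 below, with the integrin ITGA6 at 0.94, E-cadherin (CDH1) at 0.48 and the actin crosslinker ACTN1 at -0.44. Of 10 secreted factors of senescence 4 were above and 3 below, too few to read against those shares.

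Of 6 neuroendocrine markers 1 was above and 2 below, against 21% and 22.9% of all genes. SYT4, a synaptotagmin, had 31.1, 29.7 and 31.7 FPKM in the vehicle libraries, 52.9, 51.3 and 46.8 under VIC-1911, 77.3, 79.5 and 85.2 with olaparib, and 105, 110.1 and 106 in the combination libraries. It rose in every step, with an interaction of -0.25 (SE 0.07, adjusted p = 0.0042), and in FPKM the combination exceeded the sum of the single-drug differences by 6.68. ENO2, the neuronal enolase, was sign-reversed, with an interaction of 0.92, and ONECUT2, a homeobox factor, was attenuated, with -0.67.

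The 48-hour libraries place the classes against an earlier effect of VIC-1911, measured in other libraries. Of the attenuated genes tested at both times, 3218 of 4526 (71.1%) had a 48-hour change of the same sign as at 7 days without olaparib. The same held for 283 of 775 sign-reversed genes (36.5%), 111 of 276 more-than-additive genes (40.2%) and 7611 of all 12240 genes (62.2%). Of the sign-reversed genes, 68 were called at 48 hours in the direction of 7 days and 180 against it, where VIC-1911 changed 1798 of 12241 genes (14.7%) in all. These counts were 23 and 32 for the more-than-additive genes, and 1314 and 484 over all 12240 genes. The classes used the 7-day effect of VIC-1911, so these shares are a description.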

How the data were processed

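RNA from C4-2B cells was sequenced by the authors, who trimmed the reads, aligned them to hg38 with STAR (version 2.6.0 in the submitters' processing notes), and deposited raw counts per gene without normalization. The FPKM values deposited by the authors were used to show levels and in limma alternatives. Handling of strand and of reads with several matches was not given in the sources used here. The 12 libraries of 7 days (4967931 to 19684208 counts, which set the precision) were fitted in edgeR 4.0.16 (R 4.3.3, TMM, glmQLFit, glmQLFTest) with group means, with Benjamini-Hochberg adjustment over all genes tested. The 48-hour counts were fitted separately, and 6 columns of 48-hour FPKM were not used. Replicates differed by more than sampling noise (chi-square per degree of freedom 1.66 to 5.40). The comparison, gene lists and classes were chosen with earlier results of these data known.

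Named genes are the 4 with the largest interaction in each class and direction (at least 1 FPKM on average in a group, called with the same sign in every fit that left out a library), the 3 with the smallest adjusted p in each of 18 lists, and 12 fixed genes, some of which are not reported here. USP33 and MYL6B are named as the genes nearest the threshold. Promoters and positions came from RefSeq (GRCh38.p14). Of 86 named genes, 85 had a position and 40 overlap another gene, so that their counts are uncertain. Alternatives were other scalings and filters, DESeq2 1.42.0, limma 3.58.1, glmTreat, a linear scale, swapped drugs, a replicate block and each library left out. A prior count of 2 and the list counts under each alternative were added after seeing the data. In simulated counts of 14409 genes the fit recovered 49 of 67 interactions of 1.5-fold, 63 of 67 of 2-fold and 65 of 66 of 3-fold, and called 17 unchanged genes. The interactions were set only in genes above a minimum mean count, and in far fewer genes than were called in the data. Counts were drawn from the fitted dispersions, and recovery in genes with few counts was not tested.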

Additional observations from a re-analysis of the deposited data

Results flagged for a closer look

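The VIC-1911 effect had opposite signs without and with olaparib, past the test on both sides and in the interaction itself (edgeR's quasi-likelihood test, Benjamini-Hochberg adjustment), for 787 genes. For the named genes that VIC-1911 lowered without olaparib and raised with it, the interaction log2 values were 6.55 (BEST1), 6.28 (S100P), 2.73 (DDIT3), 2.50 (MAP1B), 2.04 (SESN2), 2.49 (VEGFA), 0.98 (FTH1), 0.92 (ENO2) and 1.69 (ATF4).

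Named genes that VIC-1911 raised without olaparib and lowered with it were more numerous. Among genes of mitosis and nuclear structure the interaction log2 values were -2.46 (CDK1), -2.17 (ANLN), -1.82 (TOP2A), -2.23 (AURKA), -1.66 (AURKB), -2.77 (ERCC6L), -1.83 (LMNB1) and -1.33 (HMGB2). Among genes of replication and DNA repair the values were -2.26 (RRM2), -2.55 (MCM10), -1.74 (MCM4), -1.65 (ATAD2), -1.46 (FANCI), -1.74 (BRCA2), -1.69 (POLQ), -1.22 (BRCA1) and -0.74 (PARP1). The remaining values were -2.70 (SLC22A3), -2.50 (TMSB15A), -1.71 (PHLDA1), -1.15 (FKBP5), -1.85 (OAS3), -0.88 (EBP), -1.07 (TFRC) and -0.44 (ACTN1). No explanation of these reversals was tested.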

How the results depend on the processing

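The counts above and below the additive expectation kept within 1.5 times of 3029 and 3304 under every other scaling, filter and test tried, with DESeq2 giving 2654 and 2863, except against a limit of 1.5-fold (glmTreat), which left 523 above and 571 below. The 2-fold counts fell to 200 above and 300 below with limma on log2(FPKM + 1), a scale that understates low genes. More-than-additive genes numbered 191 with limma on log2(FPKM + 0.1) and 137 at an adjusted p under 0.01, where sign-reversed genes numbered 398. With the roles of the drugs swapped there were 1481 more-than-additive and 1427 sign-reversed genes. On the linear FPKM scale 3027 and 3293 genes kept their sign, and SYT4 reversed to 6.68 FPKM. Leaving out each library in turn gave 2691 to 3075 genes above and 2884 to 3272 below, 557 to 684 and 526 to 608 at 2-fold, 4195 to 5060 attenuated, 162 to 386 more-than-additive and 483 to 869 sign-reversed. The 48-hour counts in the direction of 7 days ranged over 3121 to 3252, 96 to 117 and 275 to 294 for the attenuated, more-than-additive and sign-reversed genes. The cause of these changes was not tested. For the named genes, 1972 values showed no reversal of a called interaction and, where the alternative gave a p-value, kept their side of the threshold. Another 4 moved by at least their SE with the prior count of 2, 1 reversed on the linear scale and 1 passed the test only with a library left out.

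Libraries with the same replicate number did not deviate together (correlations -0.036 to 0.11, with 1 of 18 above 0.1), so the numbers were not taken as pairs. With the replicate block there were 3086 genes above and 3354 below, 4873 attenuated, 316 more-than-additive and 866 sign-reversed. Depth was lowest in olaparib replicate 1, and of the interactions simulated, those of 1.5-fold were recovered least often (49 of 67).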
